A study of Mus musculus with 6 samples.

Results

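The genes described are the mitochondrial carriers of solute carrier family 25, taken as every row of the deposited table whose symbol starts with Slc25a followed by a number. They made up 38 of 13185 gene rows, and 36 of them were high enough to be tested. The libraries came from mouse T-ALL (T-cell acute lymphoblastic leukaemia) cells of the kind the labels call Notch1 T-ALL and oncogenic lymphocytes. All cultures, controls included, grew on plate-bound anti-CD3 at 2.5 ug/mL, an antibody against the T cell receptor complex, with IL-2 at 100 U/mL, and the labels give no mouse strain, Notch1 allele or animal age. The comparison was between 3 libraries of cells given 25 nM of the histone deacetylase inhibitor panobinostat for 2 h and 3 libraries of cells left untreated.

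Mitochondrial carriers are nuclear-encoded proteins that span the inner mitochondrial membrane and exchange metabolites between the cytosol and the matrix. They move ATP, phosphate, the acids of the citric acid cycle, amino acids, iron, nucleotides and cofactors, and so link mitochondrial respiration to synthesis in the cytosol. A few members sit elsewhere, in the outer mitochondrial membrane or in peroxisomes, and several have no settled substrate. In proliferating lymphocytes the carriers for citrate, aspartate and adenine nucleotides feed lipid synthesis, nucleotide synthesis and energy supply.

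Values are taken to be log2 CPM, read counts scaled to a fixed library total, on a log2 scale. This unit, with a further quantile normalization, was inferred from the values. The reads were taken from the 3' end of transcripts, so levels of different genes were set side by side without division by transcript length. Reads lost to or gained from near-identical copies, named below, can still shift such comparisons. Depth estimated from tied low values ran from 6010000 to 7740000 reads per library, and 1 CPM stood for 6.01 to 7.74 reads. A gene is said to have risen or fallen where its Benjamini-Hochberg adjusted p over all 12554 tested genes was below 0.05 (limma). Changes are written as log2 fold change ± SE, and gene positions are those of build mm10. No label says whether the 3 libraries of a group are separate cultures or animals, so the p-values measure the spread between these libraries, which may be technical. Library distributions had been made equal before deposit, and a shift common to all genes could not be seen. T cell markers were present, and 7 of 8 listed had a row. Their summed levels were 924 to 942 CPM in treated and 1312 to 1425 CPM in untreated libraries. Of these 7, 5 fell (Lck, Cd5, Cd3d, Cd3e and Cd2), against 19% of all tested genes. The Cd2 call was lost without any 1 treated library or untreated library 3. Markers of other cells were present as well. The 8 erythroid markers summed to 6309 to 6709 CPM in treated and 6710 to 7965 CPM in untreated libraries, the 8 myeloid markers to 1054 to 1152 and 1296 to 1468 CPM, and 5 of 6 B cell markers to 50.9 to 51.6 and 59.7 to 69.0 CPM. Falls were called for 4 of 8 tested erythroid, 4 of 7 myeloid and 2 of 5 B cell markers, and a rise for 1 erythroid marker. The part of these cells in the carrier results was not tested. In such bulk samples fewer cells of a type and less RNA per cell cannot be told apart.

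The carriers moved in both directions, with more rises than falls. Of 36 tested members 13 rose and 5 fell with panobinostat, which is 36.1% and 13.9%. Over all tested genes 19.2% rose and 19% fell. The counts by substrate class below cover few genes each and are to be read beside these shares. Among those that rose were Slc25a22, Slc25a27, Slc25a28, Slc25a29, Slc25a16, Slc25a44, Slc25a10, Slc25a1, Slc25a5, Slc25a23, Slc25a36 and Slc25a3. The 5 that fell were Slc25a45, Slc25a46, Slc25a26, Slc25a13 and Slc25a38. Treated and untreated libraries did not overlap for 15 members that were higher and 8 that were lower, against 25.7% of all tested genes in each direction and 51.4% in either. A rise of at least 1 on the log2 scale was called for 4 members (5.12% of all tested genes) and a fall of that size for 2 (5.15%). The median log2 fold change of the 36 members was 0.22, and that of all tested genes was -0.0052. For the 18 members that did not pass, log2 fold changes lay between -0.58 and 0.48. Leaving out treated library 1 or 3 or untreated library 2 gave 3 falls instead of 5. Rises in these fits numbered 10, 11 and 11 instead of 13. Calls lost without 1 library were the rises of Slc25a23, Slc25a36 and Slc25a3 and the falls of Slc25a26 and Slc25a38.

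**Figure D1:**
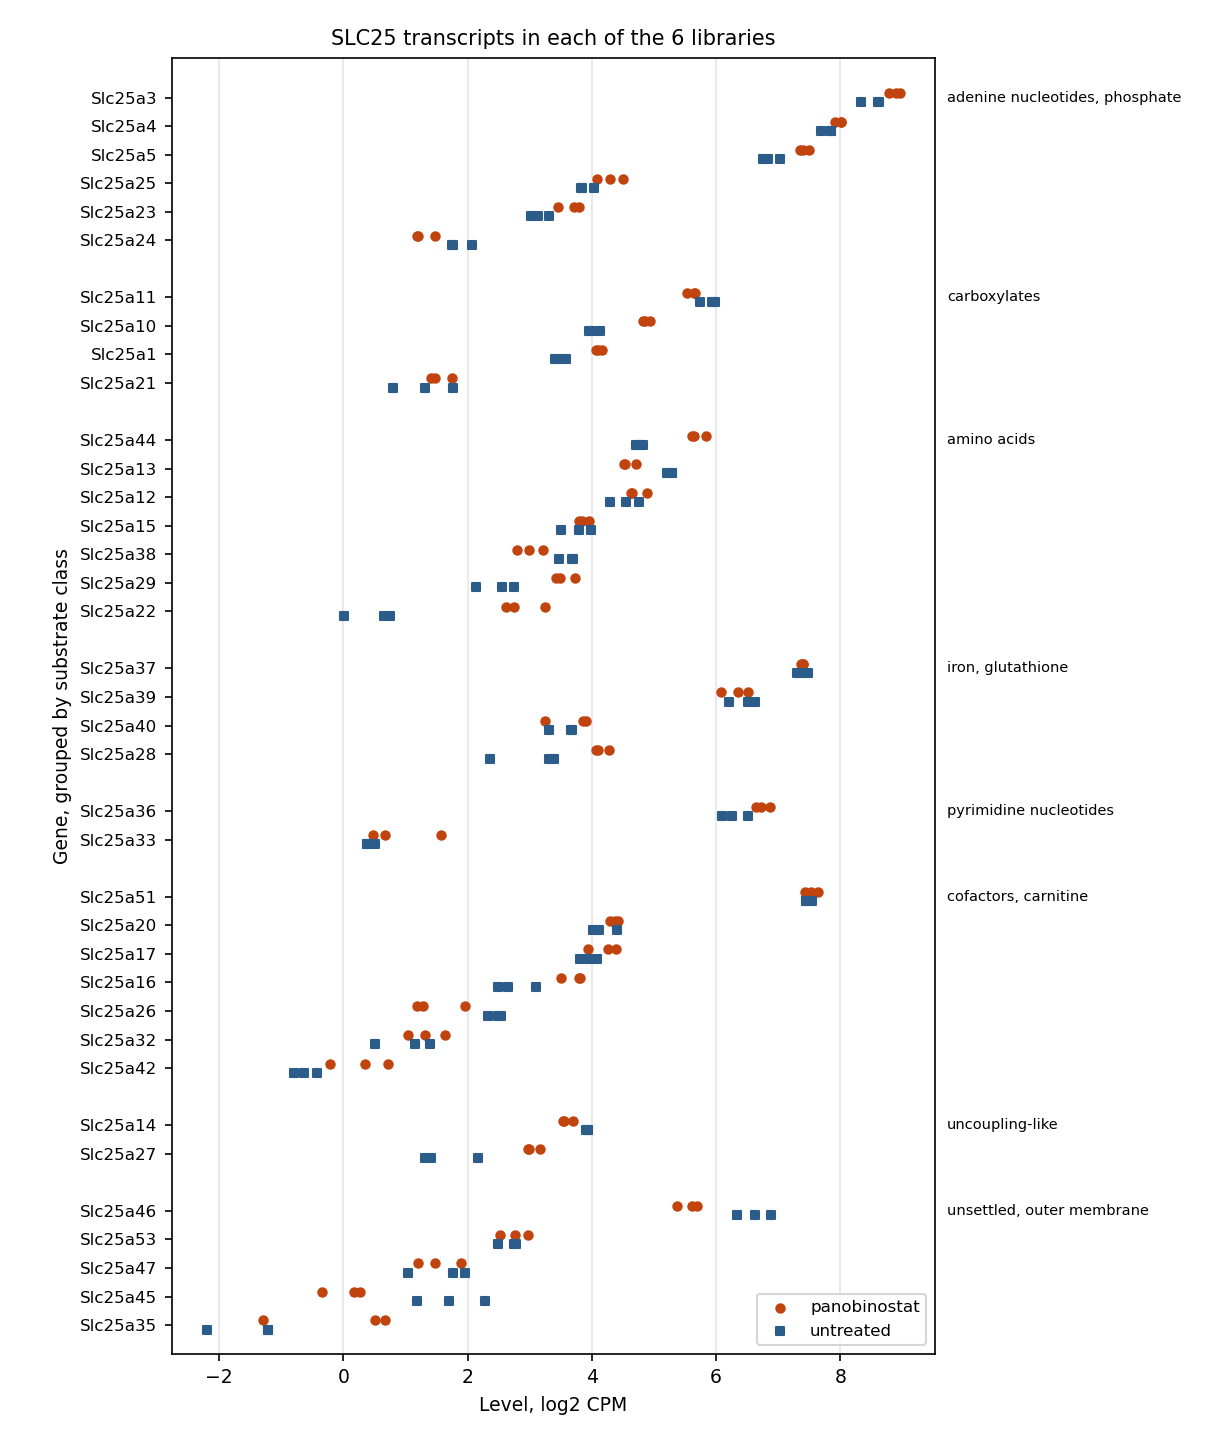
Level of 37 SLC25 genes (log2 CPM, horizontal axis) in every library, grouped by substrate class and ordered by mean level within a class. Circles are the 3 panobinostat libraries and squares the 3 untreated libraries. Slc25a3 has the highest level and Slc25a35 the lowest, and the groups lie farthest apart for Slc25a22.

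**Figure D2:**
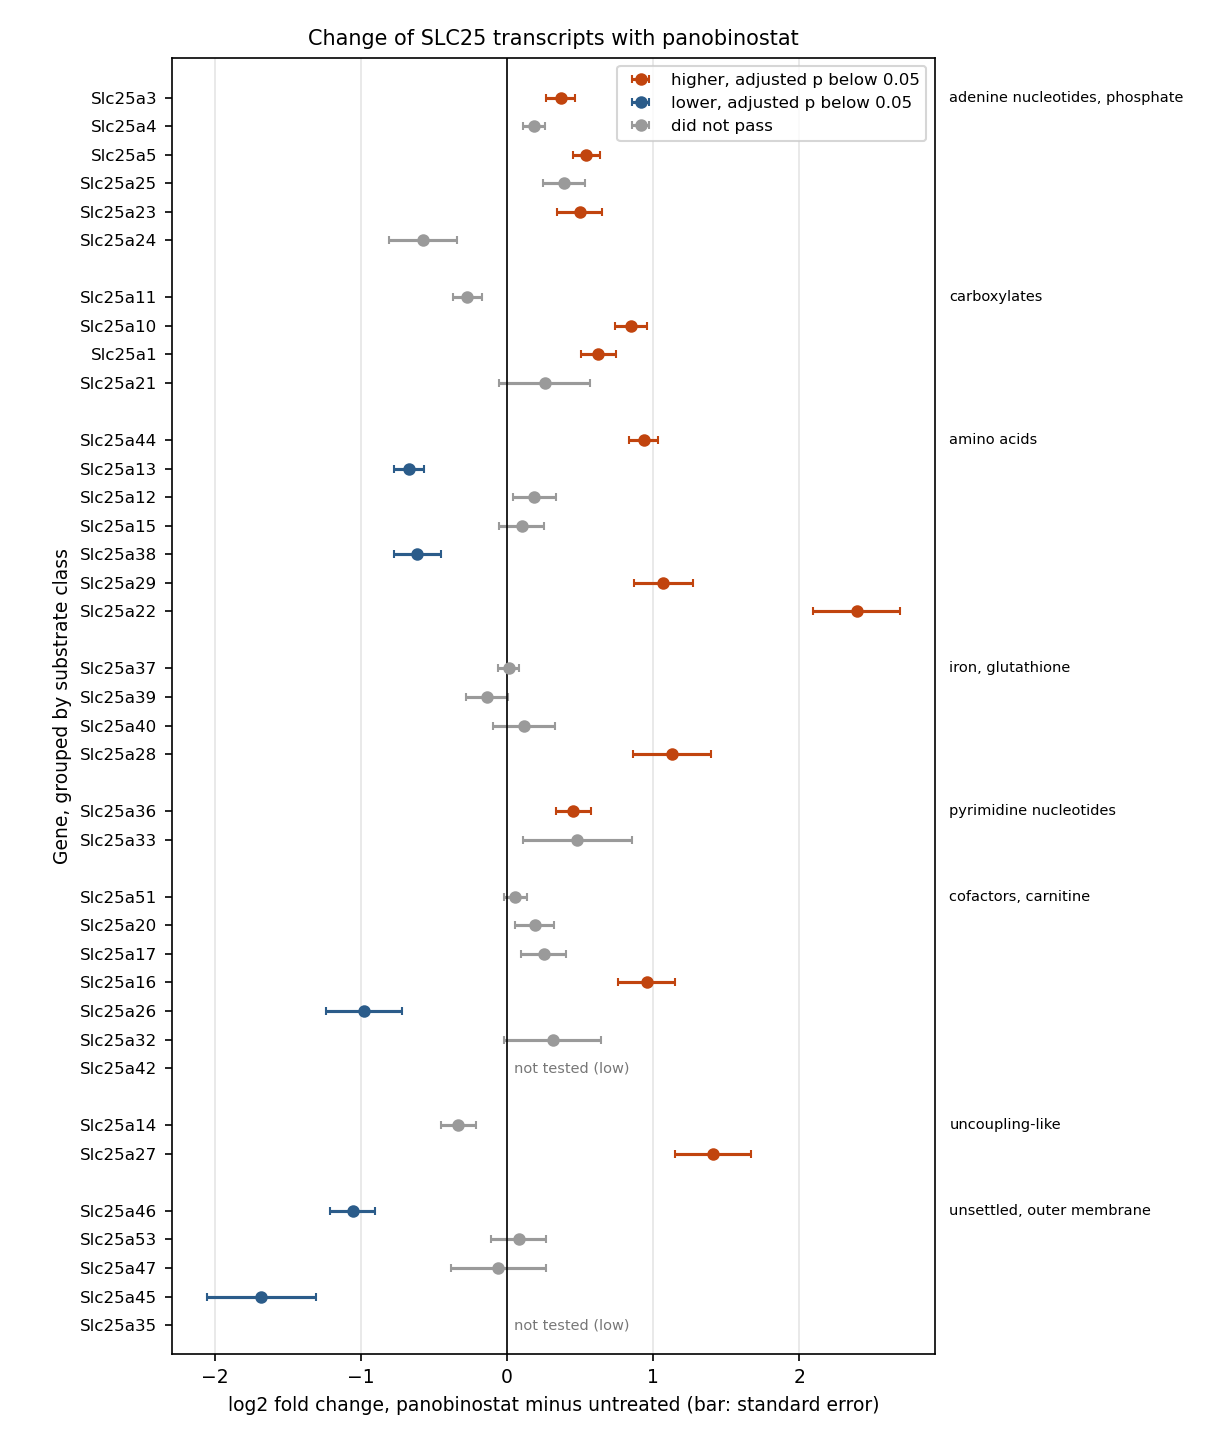
Log2 fold change of 35 tested members (panobinostat minus untreated, horizontal axis) with its standard error as a bar, in the same order. Members that rose (12 of those drawn) or fell (5) are coloured, and Slc25a22 (2.40) and Slc25a45 (-1.68) mark the ends of the range.

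The carriers of adenine nucleotides and phosphate held the largest share of family transcripts, and 3 of the 6 tested rose while 0 fell. Slc25a3 (chromosome 10, 91116574 to 91124059) brings in the phosphate from which ATP is made, and it had the highest level of the family. Across treated libraries 1 to 3 its log2 CPM was 8.90, 8.79 and 8.96, and across the untreated ones it was 8.63, 8.33 and 8.60, in the same order. Every treated value lay above every untreated one, and the change was small (log2 fold change 0.37 ± 0.10, limma adjusted p = 0.021). The call was lost without treated library 1 (adjusted p = 0.0624) or 3 (0.0813), and with a spread model that ignores level (0.0616). The ADP/ATP exchangers are encoded by Slc25a4 (chromosome 8, 46206797 to 46211284), prominent in heart and muscle, and Slc25a5 (chromosome X, 36795651 to 36798807), prominent in dividing cells. Slc25a4 was at 8.02, 8.005 and 7.92 log2 CPM in treated and 7.85, 7.86 and 7.69 in untreated libraries. These groups did not overlap either, but the difference did not pass (log2 fold change 0.18 ± 0.08, limma adjusted p = 0.0918). Slc25a5 stood at 7.35, 7.40 and 7.50 in treated and 7.03, 6.84 and 6.76 log2 CPM in untreated libraries. It rose (log2 fold change 0.54 ± 0.09, limma adjusted p = 0.00383), and its call held without any 1 library.

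In both groups the muscle-type Slc25a4 was thus the more abundant of the ADP/ATP exchangers, and the gap was narrower in treated libraries. Within a library Slc25a4 exceeded Slc25a5 by 0.67, 0.60 and 0.42 on the log2 scale in treated and by 0.81, 1.02 and 0.93 in untreated libraries. The end of Slc25a5 matched transcripts of 3 other loci, among them the pseudogene Slc25a5-ps, at 95% identity or more over at least 100 bases, and Slc25a3 matched 1 (Gm13904), so some of their reads may have been lost to or gained from copies.

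The calcium-sensitive ATP-Mg/phosphate carriers, which set the size of the matrix adenine nucleotide pool, were far lower. Slc25a23 rose modestly (log2 fold change 0.50 ± 0.16, limma adjusted p = 0.0387). Leaving out treated library 1 or 2 or untreated library 2 or 3 raised the adjusted p to between 0.0979 and 0.12, which ended the call. Slc25a25 was at 0.39 ± 0.15 (limma adjusted p = 0.0683) and Slc25a24 at -0.58 ± 0.24 (0.0887). Neither passed, though in each the libraries of the groups did not overlap. Slc25a24 was low, with 13, 18 and 17 reads estimated from tied values in treated and 27, 27 and 22 in untreated libraries.

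Of the carriers of citric acid cycle intermediates 2 of 4 rose and 0 fell. Slc25a1 (chromosome 16, 17925223 to 17928219) exports citrate, the source of cytosolic acetyl-CoA for lipid synthesis. It measured 4.17, 4.07 and 4.10 log2 CPM in treated and 3.47, 3.40 and 3.59 in untreated libraries. The separation was several times the spread within a group (log2 fold change 0.63 ± 0.12, limma adjusted p = 0.00625). Slc25a10 (chromosome 11, 120491840 to 120499187) exchanges malate and succinate for phosphate. Its values were 4.94, 4.85 and 4.82 log2 CPM in treated and 4.13, 3.96 and 3.98 in untreated libraries. This was the largest rise of the class (log2 fold change 0.85 ± 0.11, limma adjusted p = 0.00125). The 2-oxoglutarate/malate exchanger gene Slc25a11 was lower in every treated library (5.53 to 5.66 log2 CPM) than in any untreated one (5.74 to 5.99). Its difference of -0.27 ± 0.10 did not pass (limma adjusted p = 0.0608), although it did without untreated library 1 (-0.35, adjusted p = 0.0183). Slc25a21, the carrier of oxoadipate and related oxo acids, was low and did not pass (0.26 ± 0.31).

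Amino acid carriers held the largest rise of the family and 2 of its falls: of 7 tested 3 rose and 2 fell. Slc25a22 (chromosome 7, 141429744 to 141437892), a glutamate carrier that moves glutamate together with a proton, was low in untreated cells. It was read at 2.61, 2.75 and 3.24 log2 CPM in treated against 0.76, 0.02 and 0.65 in untreated libraries. In reads estimated from tied values this was 36, 45 and 72 in treated and 13, 6 and 10 in untreated libraries. All treated libraries were far above all untreated ones, a 5.26-fold difference (log2 fold change 2.40 ± 0.30, limma adjusted p = 0.00115). Slc25a29 (chromosome 12, 108825873 to 108835883), which carries basic amino acids, reached 3.74, 3.42 and 3.49 log2 CPM in treated against 2.56, 2.13 and 2.75 in untreated libraries. Its rise was about 2.1-fold (log2 fold change 1.07 ± 0.20, limma adjusted p = 0.00559). Slc25a44 (chromosome 3, 88410498 to 88425139) takes up branched-chain amino acids and had the highest treated level of this class. Its levels of 5.62, 5.84 and 5.65 log2 CPM in treated and 4.71, 4.76 and 4.83 in untreated libraries were tightly grouped. It had the smallest adjusted p of the family (log2 fold change 0.94 ± 0.10, limma adjusted p = 0.000682).

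The falling amino acid carriers were those of aspartate and glycine. Slc25a13 (chromosome 6, 6041218 to 6217173) encodes citrin, an aspartate/glutamate exchanger of the malate-aspartate shuttle. It was at 4.51, 4.54 and 4.72 log2 CPM in treated and 5.21, 5.28 and 5.29 in untreated libraries. The groups did not overlap (log2 fold change -0.67 ± 0.10, limma adjusted p = 0.00234). Its close relative Slc25a12, which encodes aralar and does the same exchange, did not pass (0.19 ± 0.15, adjusted p = 0.35). Aralar was below citrin in all 3 untreated libraries, by 0.92, 0.52 and 0.74 on the log2 scale. In treated libraries 1 and 2 it was above citrin, by 0.11 and 0.35, and in library 3 the within-library difference was -0.07. Slc25a38 (chromosome 9, 120110374 to 120124504), a glycine carrier needed for haem synthesis, was at 2.80, 3.21 and 2.997 log2 CPM in treated and 3.69, 3.68 and 3.47 in untreated libraries. All treated values were lower (log2 fold change -0.62 ± 0.16, limma adjusted p = 0.0202). That call was lost without treated library 1 (adjusted p = 0.0635) or 3 (0.0594) or untreated library 2 (0.0601). The ornithine/citrulline carrier gene Slc25a15 did not pass (0.10 ± 0.15).

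Among iron and glutathione carriers 1 of 4 rose and 0 fell. Mitoferrins import iron for haem and iron-sulphur clusters, mitoferrin 1 being the form of erythroid cells and mitoferrin 2 that of most tissues. The mitoferrin 1 gene Slc25a37 (chromosome 14, 69241848 to 69285112) was among the highest of the family, at 7.36, 7.41 and 7.40 log2 CPM in treated and 7.30, 7.37 and 7.48 in untreated libraries. These ranges overlapped and no difference was called (log2 fold change 0.01 ± 0.07, limma adjusted p = 0.924). The mitoferrin 2 gene Slc25a28 (chromosome 19, 43663801 to 43674881) was at 4.07, 4.09 and 4.27 in treated and 3.31, 2.36 and 3.38 log2 CPM in untreated libraries. It rose (log2 fold change 1.13 ± 0.27, limma adjusted p = 0.0137), and untreated library 2 was well below the other two; without it the log2 fold change was 0.80 and still passed (adjusted p = 0.0086).

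Erythroid markers are given beside mitoferrin 1 and Slc25a38 because red cell precursors express both strongly. Of 8 such markers 4 fell, 1 rose and 3 did not pass, where 19% of all tested genes fell and 19.2% rose. The erythroid transcription factor gene Klf1 was at 3.16 in treated and 4.48 log2 CPM in untreated libraries (-1.31 ± 0.16), and the haem synthesis gene Alas2 at 4.99 and 5.40 (-0.41 ± 0.12), a call lost without treated library 2 or 3 or untreated library 2 or 3. The alpha globin genes Hba-a1 (-0.37 ± 0.11) and Hba-a2 (-0.40 ± 0.12) fell. Both calls were lost without treated library 2 or 3 or untreated library 2 or 3, and that of Hba-a1 also without treated library 1. The beta globin gene Hbb-bs went the other way and rose, from 9.94 in untreated to 10.30 log2 CPM in treated libraries (0.35 ± 0.10). Its call was lost without any 1 treated library or untreated library 3. The part of erythroid RNA in the Slc25a37 level and in the Slc25a38 fall was not tested. Slc25a37 also matched 2 other loci at its end (Gm16867 and Gm37847). The glutathione carrier genes Slc25a39 (-0.14 ± 0.14) and Slc25a40 (0.11 ± 0.21) did not pass, and their libraries overlapped.

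For pyrimidine nucleotides, which mitochondria import to copy and transcribe their own DNA, 1 of 2 carriers rose. Slc25a36 (chromosome 9, 97074961 to 97111157) was at 6.72, 6.65 and 6.87 log2 CPM in treated and 6.52, 6.10 and 6.26 in untreated libraries. The lowest treated library stood just above the highest untreated one (log2 fold change 0.45 ± 0.12, limma adjusted p = 0.0205). Leaving out treated library 1 or 3 or untreated library 2 or 3 took the adjusted p to between 0.052 and 0.0779, past the threshold, as did a spread model that ignores level (0.0506). Slc25a33, known as an insulin- and mTOR-responsive carrier, was near the detection limit with 8 to 22 reads in treated and 8 to 10 in untreated libraries, and did not pass (0.48 ± 0.37).

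Carriers of cofactors and carnitine moved both ways. The NAD carrier gene Slc25a51 (chromosome 4, 45395923 to 45408766) ranked behind only Slc25a3 and Slc25a4 in level. Its log2 CPM was 7.44, 7.64 and 7.53 in treated and 7.44, 7.54 and 7.45 in untreated libraries, and it did not pass (0.05 ± 0.08, limma adjusted p = 0.614). Slc25a16 (chromosome 10, 62920633 to 62946498), linked to coenzyme A transport, stood at 3.80, 3.51 and 3.80 in treated and 2.65, 3.11 and 2.50 log2 CPM in untreated libraries. It rose (log2 fold change 0.96 ± 0.20, limma adjusted p = 0.008).

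Slc25a26 (chromosome 6, 94500331 to 94604672) brings S-adenosylmethionine, the methyl donor, into the matrix. It was at 1.18, 1.96 and 1.28 log2 CPM in treated and 2.33, 2.49 and 2.54 in untreated libraries, or 13, 25 and 18 against 40, 36 and 38 estimated reads. It fell (log2 fold change -0.98 ± 0.26, limma adjusted p = 0.021). With treated library 1 or 3 or untreated library 2 or 3 left out it no longer passed (adjusted p of 0.059 to 0.0708). Its last 500 bases overlap Lrig1 on the opposite strand, and Lrig1 rose by 2.27 ± 0.22 on the log2 scale. The strand setting of the counting was not given, so reads of these overlapping genes cannot be told apart here. Slc25a20, the carnitine/acylcarnitine carrier of fatty acid oxidation (0.19 ± 0.14), the peroxisomal Slc25a17 (0.25 ± 0.16) and Slc25a32, linked to folate and FAD (0.31 ± 0.33), did not pass. The ends of Slc25a23, Slc25a21 and Slc25a35 also overlap a gene on the opposite strand (Gm17168, Pax9 and Rangrf), and those of Slc25a40 and Slc25a51 match a transcript of another locus (Gm5066 and Itgad), so their values carry the same doubt. The coenzyme A carrier gene Slc25a42 was too low to be tested, with 5, 8 and 12 reads in treated and 5, 3 and 4 in untreated libraries.

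Of the uncoupling-protein-like members 1 of 2 rose. Slc25a27 (chromosome 17, 43641891 to 43667214), which encodes UCP4 and is best known from brain, was at 2.97, 2.99 and 3.16 log2 CPM in treated and 2.17, 1.41 and 1.31 in untreated libraries. Its rise was the second largest of the family (log2 fold change 1.41 ± 0.26, limma adjusted p = 0.00511). Slc25a14, which encodes UCP5, was lower in every treated library (3.53 to 3.70 log2 CPM) than in any untreated one (3.91 to 3.95) and did not pass (-0.34 ± 0.12, limma adjusted p = 0.0604).

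Members of unsettled substrate or outside the inner membrane held the 2 largest falls and no rise among 4 tested. Slc25a46 (chromosome 18, 31556111 to 31609911) is an outer membrane protein that takes part in mitochondrial fission and fusion. It was at 5.61, 5.70 and 5.38 log2 CPM in treated and 6.34, 6.89 and 6.63 in untreated libraries. Its mean level went from 99.7 to 47.5 CPM (log2 fold change -1.06 ± 0.15, limma adjusted p = 0.00197). Slc25a45 (chromosome 19, 5877808 to 5885878) was low, at 0.27, -0.34 and 0.18 log2 CPM in treated and 1.18, 2.28 and 1.70 in untreated libraries. These are 7, 5 and 8 against 18, 31 and 21 estimated reads (log2 fold change -1.68 ± 0.37, limma adjusted p = 0.0104). Slc25a53 (0.08 ± 0.19) and Slc25a47 (-0.06 ± 0.33) did not pass, and Slc25a35 was not tested, with 2, 10 and 10 reads in treated and 1, 2 and 2 in untreated libraries.

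Pairs of carriers with the same or related substrates were compared within libraries. For 6 of 8 pairs tested the log2 difference between the 2 genes did not overlap between the groups, against 48.6% of all pairs of tested genes. These pairs were chosen with earlier results known and 2 of the 6 share Slc25a24, so the count is a description of them only. An exact two-sided permutation test of 3 against 3 libraries cannot go below p = 0.1, which all 6 reached (0.133 after Benjamini-Hochberg adjustment over the 8 pairs). In the malate carrier pair Slc25a10 lay below Slc25a11 by a mean of 1.86 ± 0.22 (SD, n = 3) in untreated and 0.74 ± 0.06 in treated libraries, and the exact permutation p was 0.1. The mitoferrin difference (Slc25a37 minus Slc25a28) went from 4.36 to 3.25 and that of aralar minus citrin from -0.73 to 0.13. The ADP/ATP exchanger difference went from 0.92 to 0.56. For the ATP-Mg carriers Slc25a23 minus Slc25a24 went from 1.30 to 2.37, and Slc25a24 minus Slc25a25 from -2.04 to -3.01. Both differences rest on the few reads of Slc25a24, which did not itself pass. The glutathione pair (exact permutation p = 0.4) and the pyrimidine pair (1) overlapped.

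**Figure D3:**
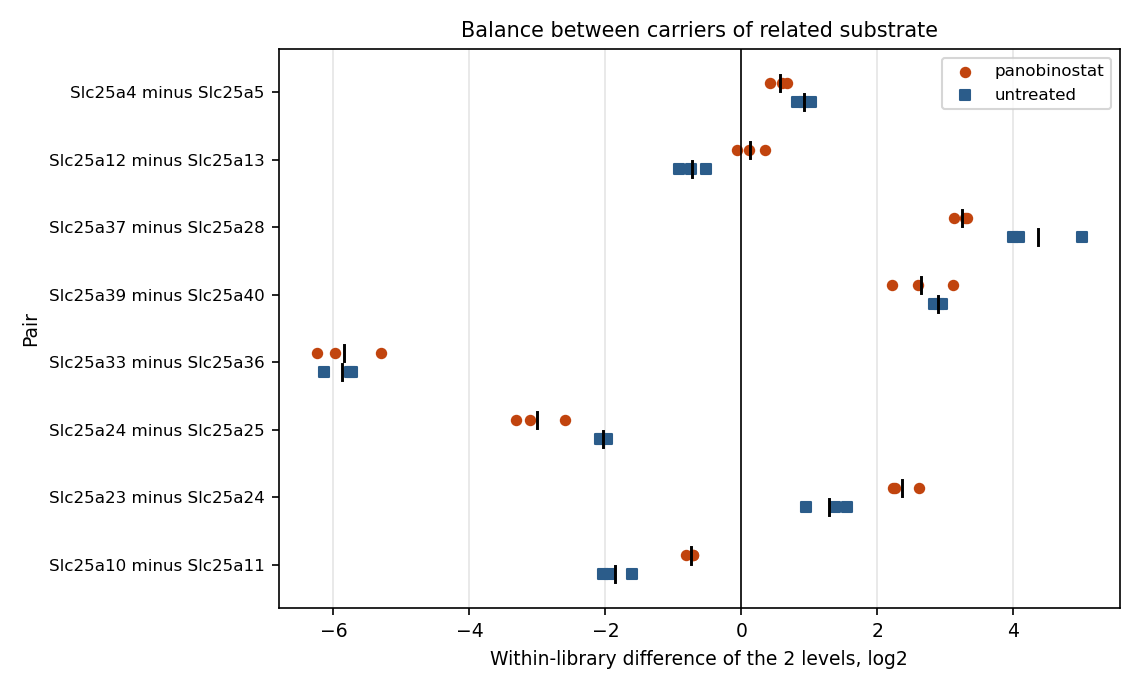
Within-library log2 difference between the 2 genes of each pair (horizontal axis) in 3 panobinostat libraries (circles) and 3 untreated libraries (squares), with the group mean as a black bar. The groups are apart in 6 pairs, and aralar minus citrin (Slc25a12 minus Slc25a13) moves from -0.73 to 0.13.

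Summed over all 38 members, family transcripts made up 1940, 1949 and 1979 CPM in treated and 1703, 1697 and 1714 CPM in untreated libraries. The treated sum was 1.15 times the untreated one. A few genes set this sum: Slc25a3, Slc25a4, Slc25a51, Slc25a37, Slc25a5 and Slc25a36 together held 64.1% to 70.5% of it in every library. Adenine nucleotide and phosphate carriers went from 737 ± 43.8 to 933 ± 29.0 CPM (SD, n = 3), or from 43.2% to 47.7% of the family. Members of unsettled substrate or outside the inner membrane, mostly Slc25a46 of the outer membrane, went from 113 ± 18.8 to 59.4 ± 4.56 CPM. Iron and glutathione carriers summed to 276 ± 21 CPM in untreated and 279 ± 12.3 CPM in treated libraries, which overlapped.

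**Figure D4:**
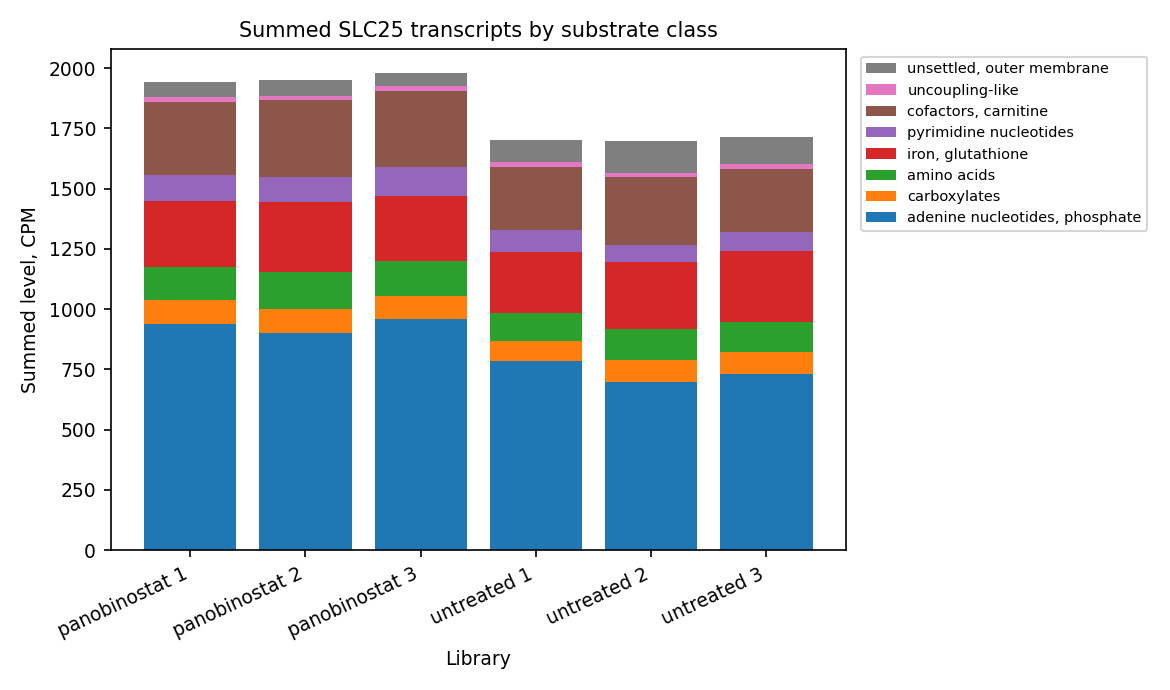
Summed level of the SLC25 genes (CPM, vertical axis) in each library, stacked by substrate class. The 3 panobinostat libraries reach 1940 to 1979 CPM and the 3 untreated libraries 1697 to 1714 CPM, and the adenine nucleotide and phosphate class fills the largest part of each bar.

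The sequence before the start of transcription is shown for the 2 largest rises and the 2 largest falls among the 29 members with an entry in the RefSeq promoter table (build GRCm38.p6), so that genes moving in opposite directions can be set side by side. Each is the 250 bases before the RefSeq start, 5′ to 3′ on the strand of the gene. Capitals mark matches on either strand to a GC box of Sp1 (GGGCGG), an E-box (CACGTG) or a CCAAT box (CCAAT). Other motifs searched, the cores of ETS (CCGGAAG), NRF1 (TGCGCA) and YY1 (AAGATGGCG) sites, have no match in these 4 windows. Slc25a22 has 3 RefSeq starts, of which the first listed is used, at chr7:141437875-141438124 (minus strand). The others are Slc25a28 at chr19:43674882-43675131 (minus strand), Slc25a45 at chr19:5877572-5877821 (plus strand) and Slc25a13 at chr6:6217174-6217423 (minus strand).
Slc25a22: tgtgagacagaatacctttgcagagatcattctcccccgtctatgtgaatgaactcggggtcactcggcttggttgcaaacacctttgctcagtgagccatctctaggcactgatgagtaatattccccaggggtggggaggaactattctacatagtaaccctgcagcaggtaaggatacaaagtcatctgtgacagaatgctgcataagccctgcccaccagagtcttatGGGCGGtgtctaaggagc
Slc25a28: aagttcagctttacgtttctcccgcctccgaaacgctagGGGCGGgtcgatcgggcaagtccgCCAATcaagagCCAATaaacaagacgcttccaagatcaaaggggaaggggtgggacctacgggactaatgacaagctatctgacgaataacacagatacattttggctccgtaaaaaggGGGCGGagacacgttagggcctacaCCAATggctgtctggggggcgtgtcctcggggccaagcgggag
Slc25a45: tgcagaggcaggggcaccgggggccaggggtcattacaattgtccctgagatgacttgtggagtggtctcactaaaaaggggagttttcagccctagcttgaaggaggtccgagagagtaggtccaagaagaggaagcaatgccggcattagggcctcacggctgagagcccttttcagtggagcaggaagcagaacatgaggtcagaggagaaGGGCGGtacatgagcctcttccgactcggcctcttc
Slc25a13: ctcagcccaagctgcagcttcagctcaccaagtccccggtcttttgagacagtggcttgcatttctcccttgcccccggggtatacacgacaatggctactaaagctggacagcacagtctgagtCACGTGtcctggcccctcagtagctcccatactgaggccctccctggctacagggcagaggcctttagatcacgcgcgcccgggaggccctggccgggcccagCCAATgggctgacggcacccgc

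A GC box lay in all of these windows but that of Slc25a13, with its first base at position -18 in Slc25a22, -36 in Slc25a45, and -211 and -68 in Slc25a28, where -1 is the last base before the start. The Slc25a28 window also held 3 CCAAT boxes (-187, -176 and -43), and the Slc25a13 window an E-box (-125) and a CCAAT box (-22). Over all members with an entry, 20 of 29 windows held a GC box (69%), against 60.3% of the 8563 tested genes with an entry and 32.9% of all 27025 genes in the table. A CCAAT box lay in 14 of 29 (48.3%, against 37.2% of tested genes), an E-box in 5 (17.2%, against 8.67%) and an NRF1 core in 3 (10.3%, against 12.9%). An ETS core lay in 5 (17.2%, against 15.3%) and a YY1 core in 0 (against 1.38%). Split by direction, 8 of 10 members that rose, 1 of 3 that fell and 10 of 15 that did not pass held a GC box. A match is only a match of letters.

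Genes that import, feed or regulate the carriers were counted from fixed lists. The shares of all tested genes to set beside these counts are 19.2% for rises and 19% for falls. Carriers reach the inner membrane through the receptor Tomm70a, the TOM pore, small chaperones of the intermembrane space and the TIM22 translocase, and of 16 such genes 7 rose and 2 fell (median log2 fold change 0.18, against -0.0052 for all tested genes). The receptor gene Tomm70a rose by 0.80 ± 0.13, the receptor gene Tomm22 by 1.11 ± 0.20 and the chaperone gene Timm9 by 0.72 ± 0.08. Of 10 tested enzymes around the malate-aspartate and citrate shuttles 6 rose and 0 fell (median 0.36). Cytosolic aspartate aminotransferase Got1 rose by 0.49 ± 0.10, glutamate dehydrogenase Glud1 by 0.55 ± 0.13 and malic enzyme Me2 by 0.45 ± 0.10. These went up beside Slc25a1 and Slc25a10 and beside the fall of Slc25a13.

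Other inner membrane transporters went mainly the other way, with 2 rises and 8 falls among 13 tested (median -0.48). The calcium uptake regulator gene Micu2 fell by 0.85 ± 0.12, and Letm1, of potassium/proton exchange, fell by 0.59 ± 0.09. Among 5 tested carnitine shuttle enzymes 1 rose, Cpt1a (0.44 ± 0.10), and 1 fell, the peroxisomal Crot (-0.53 ± 0.12), while Crat did not pass (-0.53 ± 0.32). Regulators of mitochondrial gene expression gave 2 rises and 3 falls of 10 tested (median -0.10). The counts for carnitine enzymes and for these regulators lie near the shares of all tested genes (19.2% rose, 19% fell). The nuclear receptor gene Esrra rose by 1.57 ± 0.24 and the mitochondrial transcription factor gene Tfb2m by 0.65 ± 0.15, and the ETS factor gene Gabpa fell by 0.74 ± 0.16. Of family members under other symbols, the outer membrane protein gene Mtch1 fell (-0.46 ± 0.12), a call lost without treated library 1 or 3 or untreated library 2 or 3, and Mtch2 (-0.02 ± 0.08) and Ucp2 (-0.31 ± 0.14) did not pass.

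**Figure D5:**
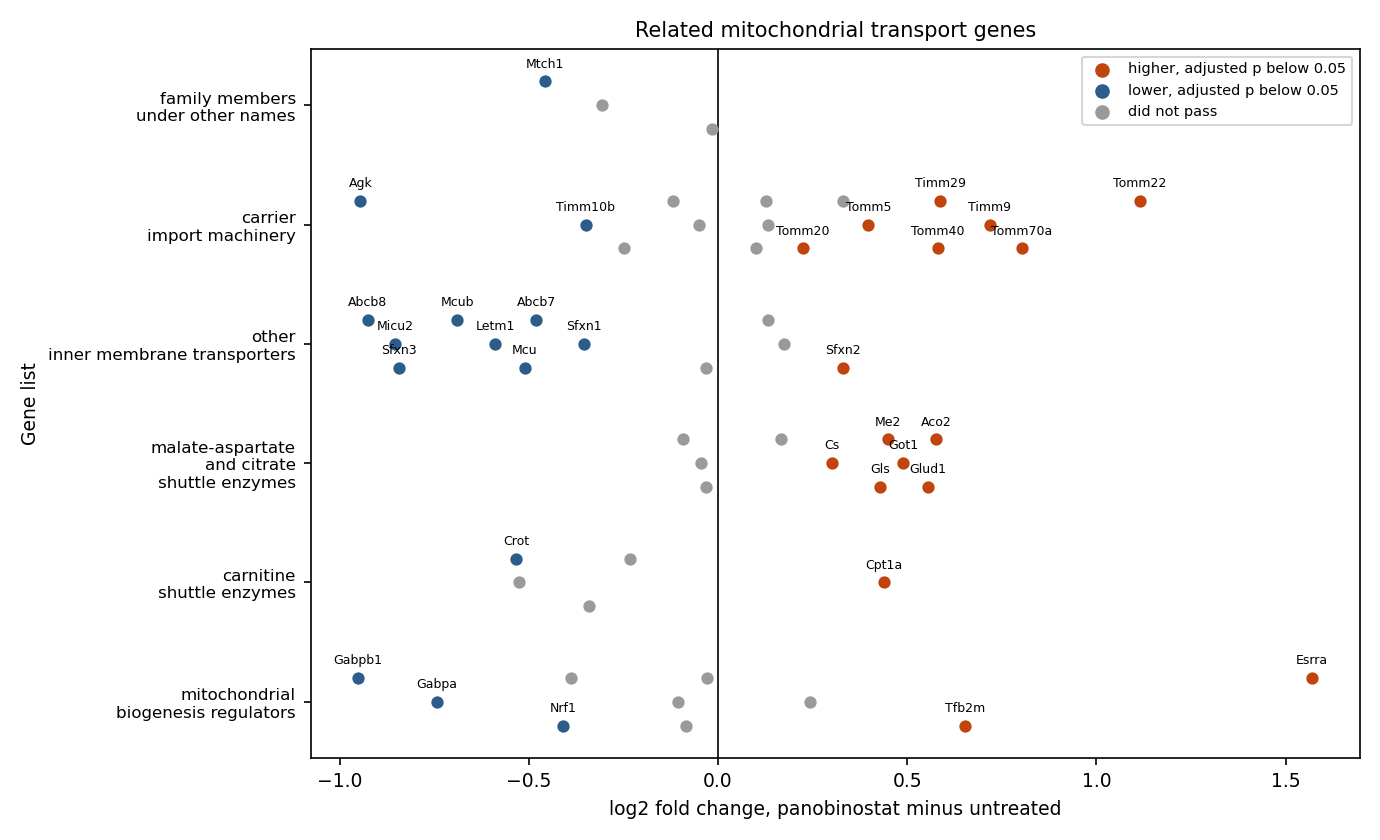
Log2 fold change (panobinostat minus untreated, horizontal axis) of genes in 6 lists of related mitochondrial transport genes, 1 point per gene. Coloured and named points passed the test, and grey points did not. Shuttle enzymes that passed are all on the right (6 of 10), and other inner membrane transporters that passed lie mainly on the left (8 of them).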

How the data were processed

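RNA from 6 libraries was made into 3' mRNA libraries with the QuantSeq kit from 100 ng of total RNA, per the labels' protocols. The submitters' processing notes name HISAT2 2.1.0, cutadapt 1.9, limma, Subread 1.5.0 and its featureCounts, on build mm10. For annotation, strand setting and filters, nothing is stated in the labels or notes. Log2 values of 13185 rows were deposited by the authors. That these are quantile-normalized log2 CPM was inferred from the values, whose powers of 2 sum to 994114 to 994182 per library. Samples were grouped by the labelled treatment, and library numbers are those of the column headers.

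Rows with a mean log2 of at least 0 (12554) were fitted with limma 3.58.1 (lmFit, eBayes with trend) in R 4.3.3, and p-values were adjusted by Benjamini-Hochberg (threshold 0.05). The fit was also run on simulated normal values. These meet the model's own assumptions, so that run cannot show how well the model suits these data. Pairs were tested with exact permutation (SciPy 1.17.1). Reads were counted as steps between a library's distinct values, up to 300 steps, and cover counting error only. Positions came from GENCODE release M21, and copies of the last 500 transcript bases were sought with blastn 2.17.0. Members, classes, lists, pairs and tests were chosen with earlier results of these data known. Members past the threshold with an absolute log2 fold change of at least 0.5 and the 6 most abundant are given in every library, and up to 3 genes of each list by smallest adjusted p. Alternatives were other filters, scalings, spread models, sample weights, a threshold of 0.01, a pseudocount of 1 each library left out and, added after seeing the data, a block on library number. Results for 1 member and 1 listed gene are not reported here, though both are in the counts and sums.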

Additional observations from a re-analysis of the deposited data

How the results depend on the processing

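None of the 18 called members changed direction under any alternative that gave it a value. A minimum of 2 on mean log2 gave none for 8 low members, among them the called Slc25a22, Slc25a26 and Slc25a45. The count of 13 rises stayed between 9 and 15, and leaving out 1 library gave 10 to 13 rises and 3 to 6 falls. At an adjusted p below 0.01 there were 2 falls, and 7 both without a trend in the spread model and with sample weights. Without that trend Slc25a3 (0.0616) and Slc25a36 (0.0506) lost their calls. Over all genes a threshold of 0.01 gave 1240 rises and 1273 falls. Leaving out 1 library gave 1582 (without treated library 3) to 2677 rises and 1634 to 2556 falls. Both counts were below those of the main fit except without untreated library 1, where more calls were made. The cause of the differences between left-out libraries was not tested. Of the called members 13 kept their call without any 1 library and 5 lost it at least once, and Slc25a11 gained one. Signs turned only for uncalled values near 0. With 1 library left out Slc25a15 ran from -0.025 to 0.21, Slc25a37 from -0.028 to 0.058, Slc25a40 from -0.0060 to 0.33, Slc25a47 from -0.33 to 0.13, Slc25a53 from -0.031 to 0.19, and the pair Slc25a33 and Slc25a36 from -0.24 to 0.23. With sample weights Slc25a15 was at -0.024 and Slc25a37 at -0.041, and with a pseudocount of 1 the pair was at -0.14; for these the cause was not tested. Titles give every library the number 1 but column headers number them 1 to 3, and a replicate block on those numbers was added after seeing the data. Deviations of same-numbered libraries correlated at -0.044, 0.10 and -0.011, and those of differently numbered ones at -0.16 to 0.15. Not every library correlated best with its own number. Deviations from means of 3 libraries cannot decide whether same-numbered libraries shared a culture or animal, and no label says so. The block gave 12 rises and 5 falls among members (Slc25a23 lost its call, adjusted p = 0.0608) and 2079 rises and 2069 falls over all genes. Members with under 25 reads in most libraries are limited by depth.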
